A study of Mus musculus with 2 samples.

Results

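Genes of glycolysis and of the cellular response to low oxygen were examined in a single-cell study of brain tissue from Balb/c mice. The set was fixed as a list of 32 symbols and was read from the 29217 genes that the deposited gene lists of both libraries hold together. All 32 symbols were found. It holds 11 genes of hexose transport and upper glycolysis, 6 of lower glycolysis, 4 that decide the fate of lactate and pyruvate, and 11 of oxygen sensing and the hypoxia response. The study models the spread of breast cancer to the brain with 4T1, a mouse mammary carcinoma line, and the labels give the triple-negative molecular type (TNBC) for both libraries. Brain tissue was dissociated and cells were captured on a Singleron GEXSCOPE microfluidic chip, which tags each captured molecule with a unique molecular identifier (UMI). There were 2 libraries, 1 titled control and 1 titled positive. The treatment entry of the library titled control names 4T1 metastasis and that of the library titled positive names its absence, so the entries run against the titles. The groups are therefore called by their titles, and no direction with or without metastasis is drawn. With 1 library per group, every difference below has no replicate check, no test between the libraries was possible, and all intervals are 95% intervals that cover counting error only. The labels give no age, no route of injection and no number of animals.

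Glycolysis splits a hexose into pyruvate in the cytosol and yields ATP without oxygen. Lactate dehydrogenase turns the pyruvate to lactate, which monocarboxylate transporters carry out of the cell, while pyruvate dehydrogenase sends it to the mitochondria unless a pyruvate dehydrogenase kinase blocks it. When oxygen is short, the prolyl hydroxylases of the EGLN family no longer mark HIF-1 alpha for degradation, and the factor binds hypoxia response elements near genes of glycolysis, pH control, mitophagy and vessel growth. In brain, astrocytes are known for a strongly glycolytic metabolism and for passing lactate to other cells, and Car9, a carbonic anhydrase at the surface of the cell, is widely used as a mark of hypoxic tumour cells.

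The promoters of 4 members are shown because these genes carry the contrasts described below. Car9 and Bnip3 moved with the rest of the set among the carcinoma-like cells, and the lactate dehydrogenase pair Ldha and Ldhb was used in opposite proportions by different cell classes. Each sequence is the 250 bases before the start of the gene in RefSeq (GRCm38.p6), written 5′ to 3′ on the strand of the gene. Capitals mark ACGTG or GCGTG, the core letters of the hypoxia response element, on either strand (CACGT or CACGC when read on the other strand), and the palindrome CACGTG counts as 2 matches. The windows are chr4:43506776-43507025 on the plus strand for Car9, chr7:138909507-138909756 on the minus strand for Bnip3, chr7:46845554-46845803 on the plus strand for Ldha and chr6:142507958-142508207 on the minus strand for Ldhb.
Car9: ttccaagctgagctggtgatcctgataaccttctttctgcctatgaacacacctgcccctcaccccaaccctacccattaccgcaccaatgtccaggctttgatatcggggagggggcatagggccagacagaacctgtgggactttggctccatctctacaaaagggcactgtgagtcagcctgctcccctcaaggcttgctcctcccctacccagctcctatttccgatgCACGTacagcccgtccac
Bnip3: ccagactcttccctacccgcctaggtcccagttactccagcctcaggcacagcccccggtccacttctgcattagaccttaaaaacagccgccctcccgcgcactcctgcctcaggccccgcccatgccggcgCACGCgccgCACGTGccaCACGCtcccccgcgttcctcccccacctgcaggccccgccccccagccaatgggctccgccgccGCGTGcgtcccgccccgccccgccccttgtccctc
Ldha: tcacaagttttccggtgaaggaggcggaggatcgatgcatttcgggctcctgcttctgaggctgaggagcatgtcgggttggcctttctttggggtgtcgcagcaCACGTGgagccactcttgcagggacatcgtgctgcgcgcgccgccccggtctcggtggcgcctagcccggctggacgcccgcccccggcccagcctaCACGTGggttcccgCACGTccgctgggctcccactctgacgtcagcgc
Ldhb: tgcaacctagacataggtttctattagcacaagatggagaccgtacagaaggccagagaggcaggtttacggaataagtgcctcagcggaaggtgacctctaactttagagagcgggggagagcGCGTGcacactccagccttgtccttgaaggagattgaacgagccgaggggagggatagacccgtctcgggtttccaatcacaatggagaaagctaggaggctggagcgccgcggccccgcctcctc
Bnip3 and Ldha held 5 matches each, and Car9 and Ldhb 1 each. The Car9 match lay 18 bases before the start and the nearest matches of Bnip3 and Ldha lay 35 and 34 bases before it, whereas the Ldhb match lay 126 bases before it. RefSeq windows were found for 28 members and not for Slc2a3, Ero1l, Bnip3l and Ndrg1. At least 1 match was present in 21 of the 28 (75%), against 38.6% of 27025 promoters of the same length, and at least 2 matches in 13 (46.4%) against 16.8%. The G+C content of the members' windows had a median of 59.2%, against 52% over all promoters, and its part in the difference was not tested. By role, a match was found in 6 of 10 windows of upper glycolysis, 4 of 6 of lower glycolysis, 4 of 4 of lactate and pyruvate fate and 7 of 8 of the hypoxia response. A match is a run of letters in a window and not a measured binding site. In GENCODE M21 on GRCm38, Car9 spans chr4:43506966-43513729 (plus), Bnip3 chr7:138890836-138909519 (minus), Ldha chr7:46841475-46855627 (plus) and Ldhb chr6:142490249-142507957 (minus), all protein-coding, and the windows of Car9, Bnip3 and Ldha reach into these gene models.

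The titled control library held 10417 barcodes and 55657687 UMIs (median 4230 UMIs and 1723 genes per barcode) and the titled positive library 10842 barcodes and 98141261 UMIs (median 7383.5 and 2472). The libraries shared 149 barcodes. Wherever 2 values are joined by "and" for the same gene and class below, the titled control value comes first. After filtering, 9806 and 10537 cells were kept and clustered without the 32 members, and clusters were named by markers, with "like" added because no annotation of cells was used. Oligodendrocyte-like (3508 cells), microglia-like (2259) and astrocyte-like cells (1910) made up most of the titled control library, and carcinoma-like (5903) and monocyte or macrophage-like cells (2230) most of the titled positive library. The titled control library held 2 carcinoma-like cells. A comparison between libraries was made for the 6 classes that reached 50 cells in both. Of the titled positive cells, 640 could not be resolved between microglia and macrophage and are called microglia or macrophage-like. All 10 carcinoma markers (Krt18 the leading one) were detected in every other titled positive class with at least 50 cells except the dendritic cell-like class, where 9 were. Their summed level ran from 9.05% of the carcinoma-like level in oligodendrocyte-like cells and 9.12% in endothelial cell-like cells to 46.2% in T cell-like and 60.3% in B cell-like cells, and its part in the members' levels was not tested beyond the subtraction of free RNA given below. In the titled control library the 10 oligodendrocyte markers stood at 3.17% (ependymal cell-like) to 23.5% (neuron-like) of the oligodendrocyte-like level in other classes.

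In the titled control library, the summed level of the members was highest in astrocyte-like cells. Levels are given as counts per 1e+06 UMIs of the class (CPM) with exact Poisson intervals. These are not per length, so they are compared between classes and not between genes. The sum of the 32 members was 17590 CPM in astrocyte-like cells, and in the other 11 classes it ran from 3514 CPM (dendritic cell-like) to 6457 CPM (neuron-like). Aldoc, the brain-type aldolase that splits fructose bisphosphate, gave 7457 CPM of the astrocyte-like sum (7394 to 7520), against 842 CPM in neuron-like cells (745 to 950), the next class. Pfkm, the muscle-type phosphofructokinase that commits hexose to glycolysis, was at 397 CPM in astrocyte-like cells and 138 CPM in neuron-like cells. Ldhb, the lactate dehydrogenase subunit that favours pyruvate, was at 1646 CPM in astrocyte-like cells (1616 to 1676) and 1330 CPM in microglia-like cells (1305 to 1356). Of 30 members with at least 100 UMIs in the library, 7 were highest in astrocyte-like cells, a class in which 9.96% of 13241 genes were highest. Neuron-like cells were highest for 6 of these 30, where 16.3% of genes were, among them the neuronal enolase Eno2 at 207 CPM against 22.6 CPM in oligodendrocyte-like cells, the next class.

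Other titled control classes stood out for single members. Hk2, the inducible hexokinase that traps glucose in the cell, was at 131 CPM in microglia-like cells (123 to 139) and 61.7 CPM in astrocyte-like cells (56.2 to 67.7). The stress-inducible Ndrg1, which is also a gene of myelinating cells, was at 881 CPM in oligodendrocyte-like cells (869 to 893) and 390 CPM in endothelial cell-like cells (368 to 412). Car9 had its highest titled control level in ependymal cell-like cells, the ciliated lining of the ventricles, at 123 CPM (103 to 146), against 18.7 CPM in dendritic cell-like cells (7.51 to 38.5). There, 40.6% of the 160 ependymal cell-like cells had a Car9 UMI (18.8% when each cell was thinned to 2000 UMIs), while 5 of the 12 classes compared in that library (endothelial cell-like, pericyte-like, smooth muscle cell-like, neuron-like and T cell-like) had none. Egln3, the HIF prolyl hydroxylase that is itself induced by hypoxia, was at 55.6 CPM in fibroblast-like cells (37.2 to 79.8) and at most 8.94 CPM elsewhere. Adm, the vasodilator adrenomedullin, was at 49.8 CPM in fibroblast-like cells, 40.9 CPM in pericyte-like cells and 39.5 CPM in endothelial cell-like cells, with overlapping intervals. Ankrd37, a small ankyrin-repeat protein, was at 105 CPM in endothelial cell-like and 76.7 CPM in pericyte-like cells, again with overlapping intervals. Slc16a3, the lactate exporter MCT4, had its highest level among monocyte or macrophage-like cells (39.1 CPM). Slc2a3, the high-affinity glucose transporter GLUT3, rested on 7 UMIs in its highest class (T cell-like, 31.3 CPM) and Car12, a second surface carbonic anhydrase, on 2 UMIs (fibroblast-like, 3.83 CPM).

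**Figure D1:**
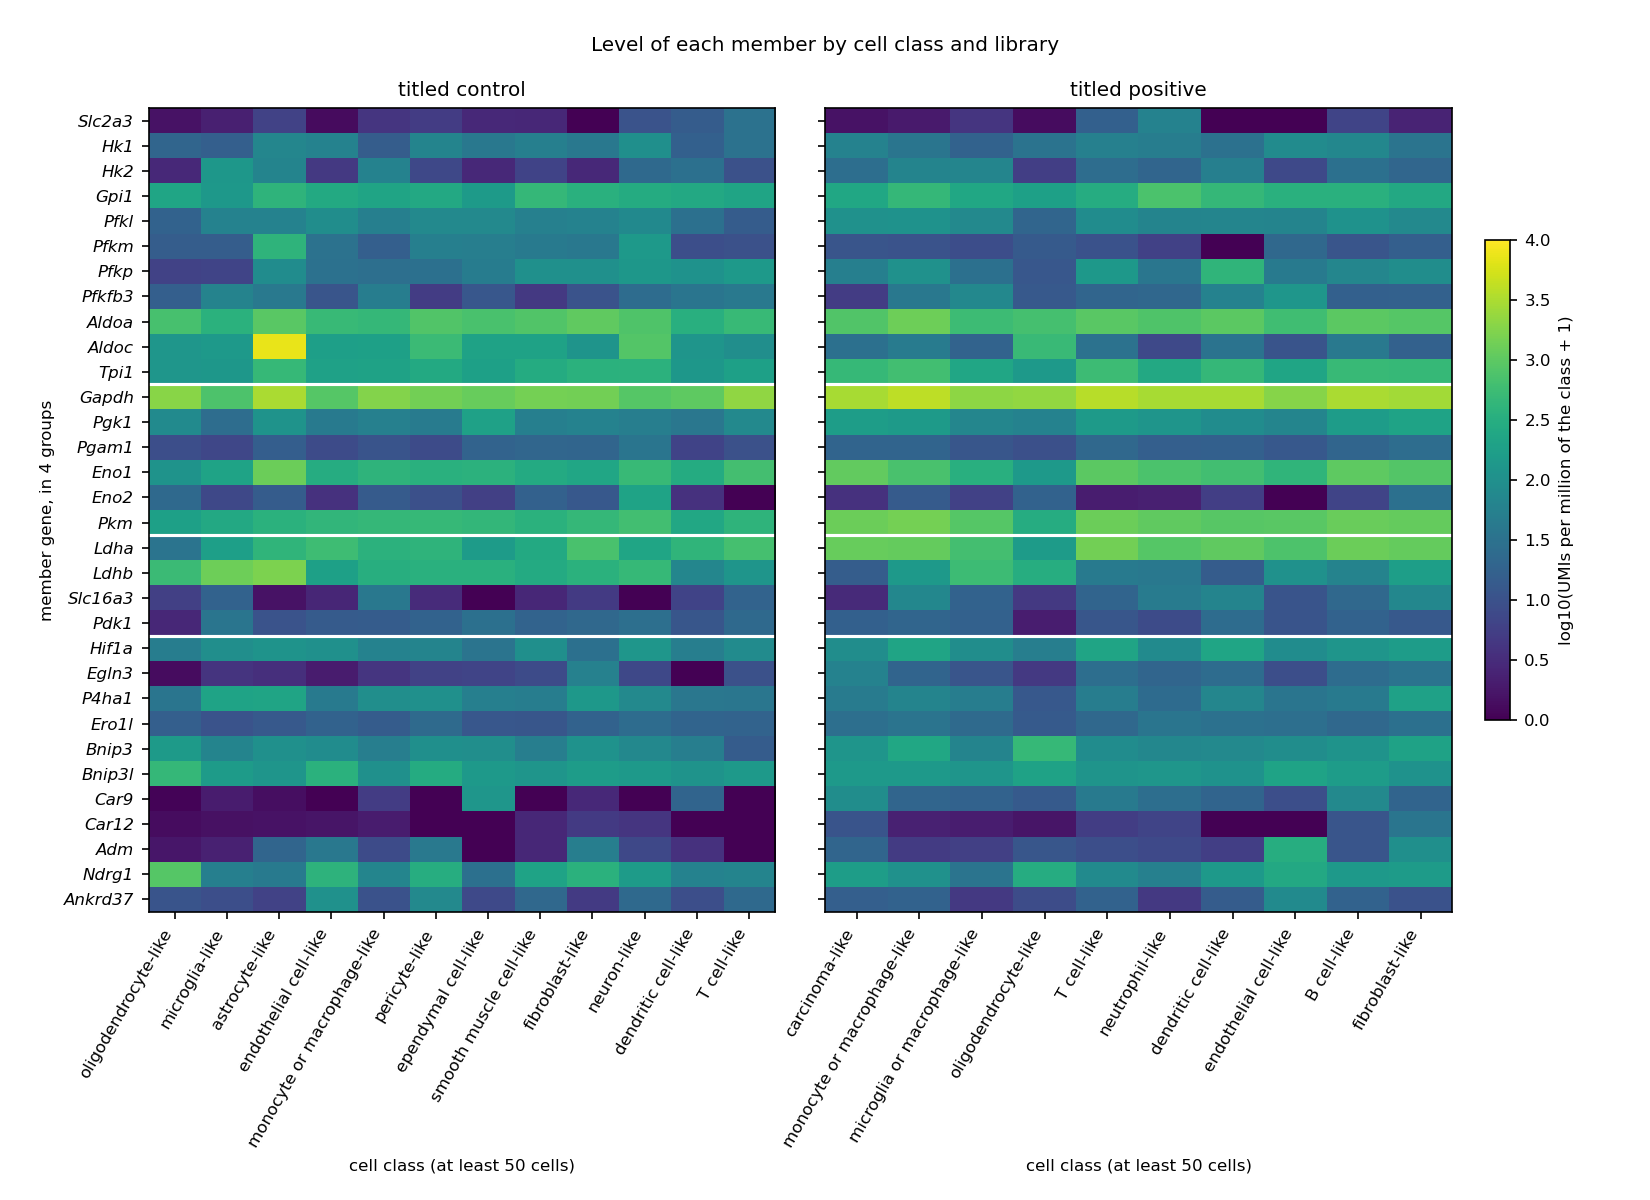
Level of each of the 32 members, as log10 of CPM + 1, by cell class (columns) in the titled control and the titled positive library. Aldoc stands out in titled control astrocyte-like cells (7457 CPM), and Car9 in titled control ependymal cell-like (123 CPM) and titled positive carcinoma-like cells (90.3 CPM).

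In the titled positive library the sum of the members ran from 5890 CPM (oligodendrocyte-like) to 11311 CPM (monocyte or macrophage-like), with carcinoma-like cells at 9313 CPM. Carcinoma-like cells were highest for 3 of the 32 members, where 14% of 12991 genes were. These were Car9 at 90.3 CPM (88.1 to 92.7), the enolase Eno1 and Egln3 at 58.7 CPM (56.9 to 60.6). Car9 was also at 74.5 CPM in B cell-like cells (57.5 to 94.9), the class with the highest level of carcinoma markers, and at 8.17 to 43.1 CPM in the other classes. A Car9 UMI was found in 38.7% of carcinoma-like cells (median 10231 UMIs) and in 5.81% of oligodendrocyte-like cells (median 4995.5 UMIs). Thinned to 2000 UMIs, the shares were 14.5% and 2.71%, with 3.63% in monocyte or macrophage-like cells.

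Endothelial cell-like and fibroblast-like cells were each highest for 6 of the 32 members, where 13.9% and 11.6% of genes were highest. In endothelial cell-like cells these included Adm at 311 CPM (268 to 358), Ankrd37 at 81.7 CPM and Pfkfb3, the kinase that makes the activator of phosphofructokinase, at 124 CPM (97.9 to 155) against 72.8 CPM in microglia or macrophage-like cells (64.3 to 82.2). Fibroblast-like cells had the highest P4ha1, a collagen prolyl hydroxylase (196 CPM), Car12 (34.9 CPM) and Eno2 (28.9 CPM). Pfkp, the platelet-type phosphofructokinase, was at 408 CPM in dendritic cell-like cells (350 to 473) and 136 CPM in T cell-like cells (119 to 154). Slc2a3 was at 57.4 CPM in neutrophil-like cells (46.4 to 70.2) and at 15.8 CPM in T cell-like cells (10.6 to 22.7), the next class. Oligodendrocyte-like cells had the highest Aldoc (509 CPM, the next class being monocyte or macrophage-like cells at 44.4 CPM) and the highest Bnip3, a mitophagy receptor of the outer mitochondrial membrane (479 CPM, against 241 CPM in the same next class). Ldhb was highest in microglia or macrophage-like cells at 548 CPM (524 to 573), with oligodendrocyte-like cells at 310 CPM (290 to 331).

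Members that do the same step were used in different proportions by different classes. Of the UMIs of Ldha and Ldhb together, Ldha, the subunit that favours lactate, gave 6.0% in titled control oligodendrocyte-like cells (exact Clopper-Pearson interval 5.6 to 6.4%), 11.8% in microglia-like and 19.8% in astrocyte-like cells. It gave 54.2% in monocyte or macrophage-like (51.5 to 56.9%), 75.5% in endothelial cell-like and 86.0% in dendritic cell-like cells of that library. In the titled positive library the Ldha share was 33.3% in oligodendrocyte-like cells (30.8 to 36.0%), 53.9% in microglia or macrophage-like, 88.9% in monocyte or macrophage-like (88.4 to 89.4%) and 98.8% in carcinoma-like cells. Ldha was thus the minor form in the titled control glial classes and the main form in carcinoma-like and endothelial cell-like cells. In oligodendrocyte-like cells the difference was smaller without free RNA. With the profile of the whole library subtracted at the share that other classes' markers gave, the Ldha shares were 3.9% and 7.1%. In monocyte or macrophage-like cells the titled positive share stayed at 88.1% after this subtraction.

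Aldolase and the mitophagy receptors had shares of their own. Aldoc gave 88.8% of the Aldoa and Aldoc UMIs in astrocyte-like and 51.5% in neuron-like cells (titled control), and 3.5% in carcinoma-like cells. In oligodendrocyte-like cells the Aldoc share was 15.5% (titled control) and 43.5% (titled positive), and 4.9% and 47.5% with free RNA subtracted. In endothelial cell-like cells it was 26.8% and 1.6%, and in monocyte or macrophage-like cells 28.5% and 3.3%. With free RNA subtracted the titled control shares of these classes were 0.0% and 10.4%. Bnip3 gave 24.5% of the UMIs of Bnip3 and its relative Bnip3l in titled control and 70.1% in titled positive oligodendrocyte-like cells, and 24.4% and 71.1% with free RNA subtracted. The Bnip3 share was also higher in the titled positive library in monocyte or macrophage-like cells (62.4% against 33.6%) and in fibroblast-like cells (64.9% against 40.3%).

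**Figure D2:**
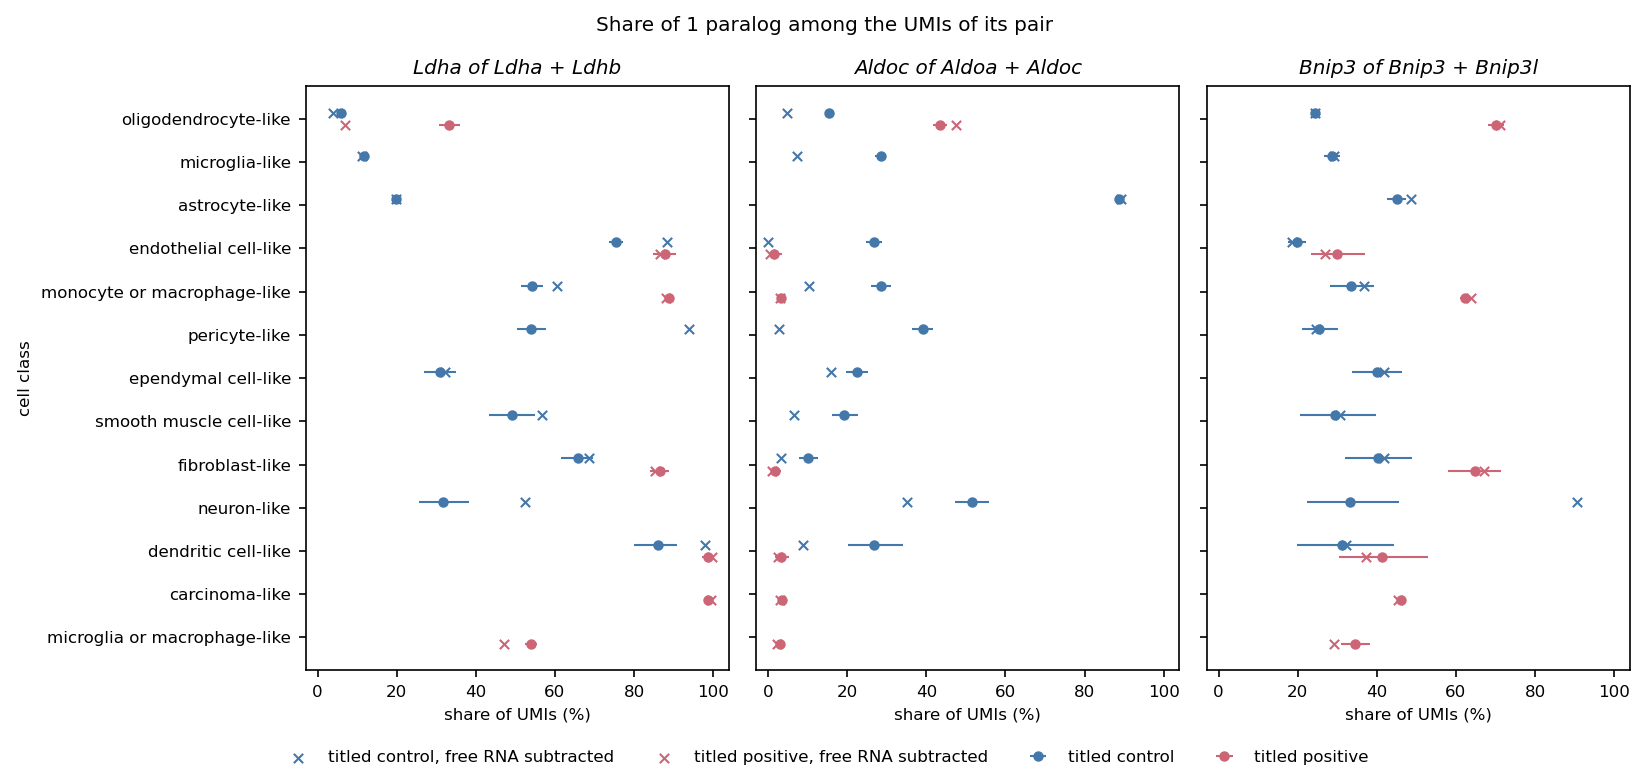
Share of paired UMIs given by Ldha (of Ldha and Ldhb), Aldoc (of Aldoa and Aldoc) and Bnip3 (of Bnip3 and Bnip3l), in percent, by class and library, with exact 95% counting intervals and crosses for the share after subtraction of free RNA. The Bnip3 share of oligodendrocyte-like cells stood at 24.5% (titled control) and 70.1% (titled positive) with the crosses close by, while the cross for their Ldha share fell to 7.1% in the titled positive library.

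Hexokinases and phosphofructokinases were also shared out by class. Hk2 gave 89.5% of the Hk1 and Hk2 UMIs in titled control microglia-like cells, 80.9% and 64.6% among monocyte or macrophage-like cells, and 31.6% in carcinoma-like cells. In oligodendrocyte-like cells it gave 9.3% and 12.4%, the rest being the constitutive Hk1. Pfkp gave 74.1% and 86.3% of phosphofructokinase UMIs in dendritic cell-like cells, 29.2% and 46.5% in monocyte or macrophage-like cells and 31.0% in carcinoma-like cells, while Pfkm gave 73.2% in astrocyte-like cells. Car12 gave 9.99% of the Car9 and Car12 UMIs in carcinoma-like cells and 65.7% in titled positive fibroblast-like cells.

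Monocyte or macrophage-like cells had higher levels of most members in the titled positive library. Their summed member level was 5204 CPM in the titled control (333 cells) and 11311 CPM in the titled positive library (2230 cells), a log2 ratio of titled positive over titled control of 1.12 (1.09 to 1.15). All 32 members had at least 10 UMIs, 24 were higher and 8 lower in the titled positive library, and 6 of the 32 intervals included 0. No share of higher genes was taken over all genes, whose median was below 0. The median log2 ratio of the members was 0.87 and ran from 0.70 to 1.12 over the alternatives tried, while the median over 13866 genes was -0.32. At least 2-fold higher were 15 of 32 members, where 11.5% of genes were, and at least 2-fold lower were 3, where 24.1% of genes were (1 when thinned to 2000 UMIs).

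Lower glycolysis and lactate production carried much of this difference in monocyte or macrophage-like cells. Gapdh, which oxidises glyceraldehyde phosphate, was at 1824 and 3941 CPM (log2 ratio 1.11). Pkm, pyruvate kinase, was at 453 and 1479 CPM (1.71, 1.61 to 1.81) and Ldha at 377 and 1134 CPM (1.59, 1.48 to 1.70). The lower glycolysis group had a median log2 ratio of 1.01 with 3 of 6 at least 2-fold higher, and its summed level was 2757 and 6309 CPM. Upper glycolysis had a median of 1.07, with 6 of 11 at least 2-fold higher: Hk1 (1.28), the isomerase Gpi1 (1.09), Pfkl (1.07), Pfkp (1.89), Aldoa (1.48) and the triose isomerase Tpi1 (1.57). Hk2 was at 58.6 and 62.4 CPM (0.09, -0.19 to 0.39), so on this scale the level of this hexokinase differed by less than its counting error. In the lactate and pyruvate group, Slc16a3 was at 39.1 and 69.4 CPM (0.82, 0.49 to 1.19) and the pyruvate dehydrogenase kinase Pdk1 had a ratio of 0.50 with an interval that included 0.

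Hypoxia members of the monocyte or macrophage-like class were higher as well, with a median of 0.84 and 5 of 11 at least 2-fold higher. Bnip3 was at 50.4 and 241 CPM (2.25, 1.97 to 2.56). The transcript of Hif1a, the oxygen-regulated subunit of HIF-1, was at 58.6 and 216 CPM (1.87, 1.61 to 2.16), and Egln3 at 3.08 and 18.3 CPM (2.46, 1.43 to 4.03). Car9 rested on 8 and 263 UMIs, at 4.11 and 18.9 CPM (2.12, 1.20 to 3.43), and its ratio was 1.21 with free RNA subtracted. Not all members of the response were higher: P4ha1 was at 95.1 and 63.2 CPM (-0.59, -0.82 to -0.35), and Adm at 7.20 and 3.96 CPM with an interval that included 0. The 3 members at least 2-fold lower were Aldoc (187 and 44.4 CPM, -2.07; -0.29 with free RNA subtracted), Ldhb (318 and 142 CPM, -1.17) and Slc2a3 (6 and 13 UMIs, -1.78). The Ldhb ratio turned to 0.04 at clustering resolution 2 and to 0.08 with names given cell by cell from markers, and Pfkm (15.4 and 9.65 CPM, -0.69) turned to 0.12 at resolution 2.

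The cells under this name were not the same mixture in both libraries. In the titled control library 325 of the 333 cells came from 1 cluster and in the titled positive library all 2230 from another. The 10 monocyte or macrophage markers summed to 22739 and 14356 CPM, the 10 microglia markers to 7127 and 862 CPM, and the 10 neutrophil markers to 168 (9 detected) and 2013 CPM. Carcinoma markers were at 3.60 CPM (4 of 10 detected) and 1195 CPM (10 of 10). The part of this composition in the member ratios was not tested; with free RNA subtracted the median was 1.06.

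**Figure D3:**
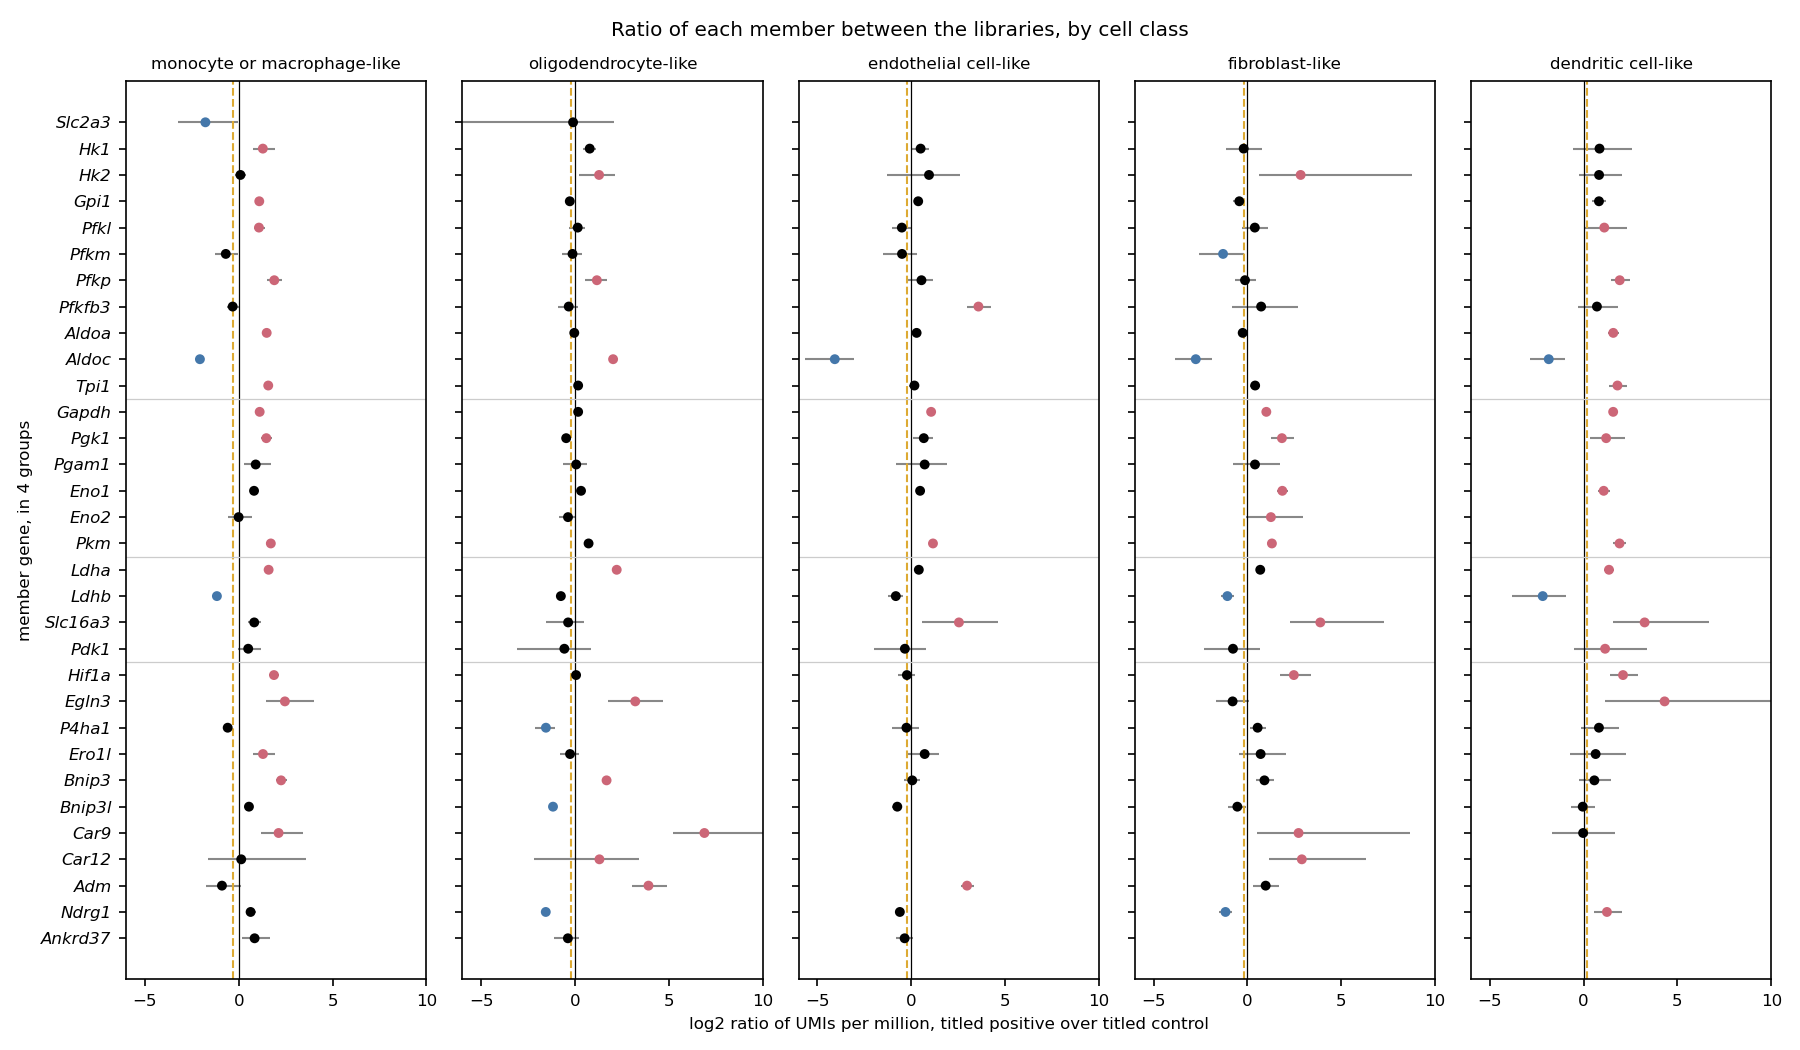
Log2 ratio of titled positive over titled control for each member in 5 of the compared classes, with 95% counting intervals; red points are at least 2-fold higher, blue points at least 2-fold lower, and the dashed line is the median of all genes of that class. In monocyte or macrophage-like cells 24 of 32 points lie above 0, and in oligodendrocyte-like cells 17 of 32.

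Oligodendrocyte-like cells, the myelin-forming cells, had members that were higher and members that were lower, with hypoxia-response genes at both ends. The summed level of the set was 5774 CPM in the titled control (3508 cells) and 5890 CPM in the titled positive library (516 cells). The median log2 ratio was 0.06, from -0.28 to 0.29 over the alternatives, with 17 members higher and 15 lower and 13 intervals that included 0, beside a median of -0.24 over 14809 genes. At least 2-fold higher were 9 of 32 members, where 15.2% of genes were, and at least 2-fold lower were 3, where 20% of genes were. Of these 9, Car12 rested on 8 and 2 UMIs and Egln3 on 9 and 10. With free RNA subtracted 4 members were at least 2-fold higher and 6 lower, and thinned to 2000 UMIs or with a minimum of 50 UMIs 5 were higher. The summed level of the hypoxia group was 1603 and 1093 CPM (-0.55, -0.61 to -0.50), and that of lower glycolysis 2380 and 2739 CPM (0.20, 0.17 to 0.24).

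Aldoc and Bnip3 were higher in oligodendrocyte-like cells of the titled positive library under all 10 alternatives run for each. Aldoc was at 125 and 509 CPM (2.03, 1.94 to 2.12), with ratios of 1.42 to 4.02 over those alternatives. Bnip3 was at 149 and 479 CPM (1.68, 1.59 to 1.77; 1.65 to 1.91 over the alternatives), and at 160 and 140 CPM in the main titled control clusters against 563 and 268 CPM in the main titled positive ones. Ldha was at 33.3 and 155 CPM (2.22, 2.05 to 2.39), but its ratio was 0.35 with free RNA subtracted. Car9 was found as 2 UMIs and 35 UMIs (6.89, 5.23 to 10.30), and Adm as 17 and 31 UMIs (0.717 and 10.95 CPM). The titled positive Car9 level was 12.4 CPM here and 90.3 CPM in carcinoma-like cells, whose markers stood at 9.05% of their own level in this class. The 3 lower members were hypoxia-response genes too: Ndrg1 at 881 and 299 CPM (-1.56, -1.66 to -1.46), P4ha1 at 34.7 and 11.7 CPM (-1.55, -2.12 to -1.07) and Bnip3l at 461 and 204 CPM (-1.17, -1.30 to -1.05). Bnip3 and Bnip3l, relatives with the same mitophagy role, thus differed in opposite directions in these cells. Hif1a was at 49.4 and 51.2 CPM (0.06, -0.21 to 0.30), a difference within counting error.

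Marker lists of this class differed between the libraries too. The 10 oligodendrocyte markers summed to 111645 and 53483 CPM, astrocyte markers to 311 and 91.5 CPM and carcinoma markers to 2.78 (6 of 10 detected) and 1008 CPM (10 of 10). The endothelial list summed to 173 and 8244 CPM with 10 of 10 detected in both, and Ly6c1 alone gave 99.8% of the titled positive sum. Their part in the ratios of Aldoc, Bnip3, Ndrg1 and Car9 was not tested. Some clusters with oligodendrocyte as their first marker score counted as mixed and were left out of the class. They were clusters of 205, 96 and 19 titled positive cells, and of 21 and 97 titled control cells with 1 titled positive cell in each. Keeping mixed clusters was 1 of the alternatives.

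Endothelial cell-like cells, which line the vessels, had higher Adm, Pfkfb3, Gapdh and Pkm in the titled positive library (82 cells) than in the titled control library (532 cells). Adm was at 39.5 and 311 CPM in the titled control and titled positive library (2.97, 2.64 to 3.32), and 8.65% and 52.4% of cells had an Adm UMI at median depths of 3560.5 and 5581 UMIs (5.08% and 31.7% when thinned to 2000 UMIs). Pfkfb3 was at 10.3 and 124 CPM on 31 and 76 UMIs (3.58, 2.97 to 4.25). Gapdh was at 885 and 1845 CPM (1.06, 0.96 to 1.16) and Pkm at 424 and 946 CPM (1.16, 1.01 to 1.30). Those 4 and Slc16a3 (5 and 6 UMIs) were the 5 of 27 members at least 2-fold higher, where 9.03% of 11786 genes were. Only Aldoc was at least 2-fold lower, where 19.2% of genes were. At clustering resolution 2, 10 of 29 members were at least 2-fold higher and 3 lower. The Aldoc level was 179 and 9.81 CPM on 539 and 6 UMIs (-4.07, -5.64 to -3.06). Its ratio turned to 4.40 with free RNA subtracted, as that of Ldhb (189 and 106 CPM, -0.82) turned to 0.38. The subtraction left almost no Aldoc in the titled control class, so 4.40 rests on the pseudocount and a few titled positive UMIs.

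The hypoxia group of endothelial cell-like cells did not move as a whole beside Adm. Its median was -0.24, with Ndrg1 at 390 and 255 CPM (-0.61, -0.86 to -0.37), Bnip3l at 354 and 211 CPM (-0.74, -1.02 to -0.48), Ankrd37 at 105 and 81.7 CPM (-0.35, -0.82 to 0.07) and Hif1a at 103 and 86.6 CPM (-0.23, -0.69 to 0.18). Car9 was found as 0 and 5 UMIs, where the floor of 3 counts allowed up to 0.995 CPM in the titled control library. The lower glycolysis group had a median of 0.72, with 5 of 5 members tested higher, and the whole set a median of 0.37 (0.20 to 0.59 over the alternatives), beside -0.23 over all genes. Erythroid markers summed to 10532 and 6.54 CPM, oligodendrocyte markers to 8440 and 1190 CPM and neutrophil markers to 38.5 and 9421 CPM in this class, and their part was not tested. The mixture of endothelial cell-like cells differed too. At clustering resolution 2 a cluster led by Gkn3 held 416 titled control and 0 titled positive cells. Another, led by Ackr1, held 105 and 104 cells. The part of this mixture in the ratios was not tested.

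Fibroblast-like cells had higher lower-glycolysis genes in the titled positive library (72 cells against 96). In that group, 6 of 6 members were higher and 5 at least 2-fold, and the summed level was 2165 and 5023 CPM. Eno1, which makes phosphoenolpyruvate, was at 232 and 843 CPM (1.86, 1.58 to 2.16), and Pgk1, which makes ATP earlier in the path, at 57.5 and 208 CPM (1.84, 1.28 to 2.48). Hif1a was at 28.7 and 164 CPM (2.47, 1.73 to 3.40). Slc16a3 was found as 2 and 46 UMIs (3.88, 2.25 to 7.28), Car12 as 2 and 23 UMIs and Car9 as 1 and 12 UMIs (2.72, 0.49 to 8.67). Upper glycolysis did not share this, with a median of -0.17 and Gpi1 at 349 and 258 CPM (-0.43, -0.74 to -0.12).

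Of 30 members tested in fibroblast-like cells, 10 were at least 2-fold higher, where 15.6% of 9553 genes were, and 4 at least 2-fold lower, where 22.4% were. Thinned to 2000 UMIs, 6 of 21 were at least 2-fold higher and 1 lower, and with a minimum of 50 UMIs 5 of 19 were higher. The lower ones were Aldoc (-2.75), Pfkm (-1.30), Ndrg1 at 356 and 158 CPM (-1.17, -1.53 to -0.82) and Ldhb at 364 and 173 CPM (-1.07, -1.42 to -0.73). The Ndrg1 ratio was -0.26 with names given cell by cell. Most cells of the class came from different clusters in the libraries: the fibroblast markers summed to 3253 and 25923 CPM, the astrocyte markers to 2651 and 346 CPM and the smooth muscle markers to 21.1 and 2519 CPM. Their part was not tested.

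Dendritic cell-like cells, which present antigen, had the highest median of the compared classes, at 1.10 (0.83 to 1.47 over the alternatives) beside 0.20 over 7424 genes. Their numbers were small, with 59 titled control and 86 titled positive cells, and 25 members had at least 10 UMIs. At least 2-fold higher were 14 of 25, where 19.2% of genes were (Egln3 among them on 0 and 11 UMIs), and at least 2-fold lower were 2, where 10.3% were. Pfkp was at 107 and 408 CPM in the titled control and titled positive library (1.92, 1.43 to 2.47), Pkm at 246 and 928 CPM (1.91, 1.59 to 2.26), Tpi1 at 131 and 459 CPM (1.80, 1.35 to 2.29), Ldha at 411 and 1050 CPM (1.35, 1.09 to 1.63) and Eno1 at 291 and 612 CPM (1.07, 0.74 to 1.41). Gpi1 was at 256 and 452 CPM (0.82, 0.46 to 1.19). All 4 lower glycolysis members tested were at least 2-fold higher. Hif1a was at 50.7 and 222 CPM (2.10, 1.41 to 2.92) and Ndrg1 at 58.7 and 141 CPM (1.24, 0.54 to 2.04), whereas Car9 was found as 7 and 8 UMIs (-0.03, -1.68 to 1.68). The 2 lower members were Aldoc (45 and 14 UMIs) and Ldhb (25 and 6 UMIs), and with free RNA subtracted 0 members were at least 2-fold lower. The dendritic markers summed to 4077 and 1308 CPM in this class and the carcinoma markers to 131 (4 of 10 detected) and 1440 CPM (9 of 10), and their part was not tested.

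T cell-like cells had 10 of 30 members at least 2-fold higher, where 21.6% of 10452 genes were, and 5 at least 2-fold lower, where 16.4% were. The count of 5 was 1 with free RNA subtracted, 3 at clustering resolution 2, and 2 when centred on the all-gene median or with a minimum of 50 UMIs. The median was 0.66 beside 0.02 over all genes, and 0.52 when the members at 0 in the titled control library were set at a floor of 3 counts. Pkm was at 402 and 1264 CPM in the titled control and titled positive library (1.64, 1.35 to 1.97). Pfkl was found as 3 and 159 UMIs (2.48, 1.12 to 4.99) and Bnip3 as 3 and 158 UMIs (2.47, 1.11 to 4.98), and the Bnip3 ratio turned to -3.62 with free RNA subtracted. The share of free RNA was set at 6.99% and 62.2% for this class. Almost no titled positive Bnip3 was left by the subtraction, so -3.62 rests on the pseudocount and a few titled control UMIs. Pfkp (148 and 136 CPM, -0.14), Bnip3l (143 and 116 CPM, -0.33) and Ndrg1 (62.6 and 81.3 CPM, 0.33) had intervals that included 0. Car9 was found as 0 and 79 UMIs, with the floor at 13.4 CPM in the titled control library and a level of 43.1 CPM in the titled positive one. The titled control class held 54 cells, and the carcinoma markers summed to 53.6 CPM (2 of 10 detected) there and 5145 CPM in the 243 titled positive cells. Of the 54 cells, 46 came from a cluster with 2 titled positive cells. Of the 243, 81 came from a cluster with carcinoma as its second marker score and all 10 carcinoma markers detected. Whether the carcinoma markers behind the 62.2% came from free RNA or from mixed cells was not tested, nor was the part of this mixture in the ratios.

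Other genes of the same pathways, from lists that hold no member, were set beside the members. For these lists no share of higher genes was taken over all genes. The all-gene medians were -0.32 in monocyte or macrophage-like, -0.24 in oligodendrocyte-like, -0.23 in endothelial cell-like and -0.19 in fibroblast-like cells. They were 0.20 in dendritic cell-like and 0.02 in T cell-like cells. Of 32 other glycolysis genes, 21 were tested in monocyte or macrophage-like cells, 8 were higher and 13 lower, and the median was -0.12, against 0.90 for the 21 glycolysis and pyruvate members there. Hk3, the hexokinase of myeloid cells, was at 40.6 and 200 CPM (2.29) in the titled control and titled positive library, and Eno3, the muscle enolase, at 124 and 21.5 CPM (-2.53). In oligodendrocyte-like cells 11 of 21 were higher (median 0.01), with Pdk4, a kinase that blocks pyruvate entry, at 5.06 and 49.5 CPM (3.29), and the lactate transporter Slc16a1 at 86.1 and 14.8 CPM (-2.52). The pyruvate carriers Mpc1 (197 and 77.0 CPM, -1.35) and Mpc2 (326 and 147 CPM, -1.14) were lower there too. In endothelial cell-like cells 9 of 20 were higher (median -0.13), with the main vessel glucose transporter Slc2a1 at 1682 and 2904 CPM (0.79) and Slc16a1 at 525 and 137 CPM (-1.93). The medians were -0.22 in fibroblast-like (6 of 15 higher), 0.88 in dendritic cell-like (9 of 14) and -0.12 in T cell-like cells (7 of 16).

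Of 33 other hypoxia genes, 31 were tested in monocyte or macrophage-like cells, and 19 were higher. At least 2-fold higher were 10, where 11.5% of all genes were. The median was 0.57 (0.31 with a gene at 0 in 1 library set at the floor). Vegfa, the vessel growth factor, was at 13.4 and 152 CPM (3.48) and Hilpda, a lipid droplet protein, at 15.4 and 154 CPM (3.30). The iron receptor Tfrc (-1.03), the prolyl hydroxylase Egln2 (-0.86) and Ccng2 (-0.75) had the lowest ratios. In oligodendrocyte-like cells 14 of 27 were higher (median 0.08), with Ddit4, an inhibitor of mTORC1, at 32.4 and 276 CPM (3.09) and Vegfa at 20.4 and 7.42 CPM (-1.42). Ddit4 was also at 53.4 and 227 CPM (2.09) in endothelial cell-like cells, where 12 of 29 were higher (median -0.11) and Tfrc was at 466 and 110 CPM (-2.08). Fibroblast-like cells had 20 of 28 higher (median 0.70), among them Errfi1 (17.2 and 503 CPM) and the collagen cross-linking enzyme Loxl2 (17.2 and 416 CPM). The medians were 0.73 in dendritic cell-like (15 of 19 higher) and 0.36 in T cell-like cells (17 of 25). The all-gene medians to set beside these are those given with the other glycolysis genes.

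Within the carcinoma-like cells the members varied between the 4 clusters of 2275, 1003, 712 and 1913 cells. Their summed level was 8959, 9560, 5922 and 10921 CPM in this order of clusters. Car9 was at 75.6, 127, 33.2 and 115 CPM, Bnip3 at 97.4, 154, 68.0 and 152 CPM and Ndrg1 at 121, 239, 129 and 226 CPM, so the cluster of 712 cells had the lowest Car9 and Bnip3. Ldha was at 1134, 1155, 646 and 1387 CPM and Gapdh at 2993, 2896, 1757 and 3574 CPM, lowest in the same cluster. Egln3 did not follow this order, at 58.6, 66.1, 83.0 and 46.8 CPM, and neither did Adm at 16.0, 25.0, 36.6 and 15.9 CPM, both highest in the cluster of 712 cells. These clusters were made without the members, but from other genes of the same cells.

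Titled control astrocyte-like cells also differed in single members among 3 clusters of 612, 593 and 705 cells. Hk2 was at 126, 6.59 and 7.54 CPM and Pfkp at 6.30, 195 and 127 CPM in this order, so the cluster of 612 cells was high in Hk2 and low in Pfkp. Adm was at 2.70, 71.3 and 4.88 CPM and Hif1a at 84.9, 195 and 86.5 CPM, both highest in the cluster of 593 cells. Aldoc was high in all 3, at 7701, 5866 and 8273 CPM.

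Across single cells, Car9 went with the other members in carcinoma-like cells. Each cell was thinned to 2000 UMIs, and the correlations describe cells of 1 library that share its preparation and depth. In 5903 carcinoma-like cells the sum of the other 31 members and Car9 had a Pearson r of 0.36 (0.28 to 0.46 over the alternatives), while 4871 genes detected in at least 5% of these cells had a median r of -0.01 with the sum of the members. The sum had an r of 0.03 with the depth of the cell before thinning and -0.03 with Arg1. In 2230 monocyte or macrophage-like cells of the titled positive library the r with Car9 was 0.04, with Car9 in 3.63% of thinned cells, too sparse for a weak correlation to count as a finding. There the r with Arg1, the arginase of alternatively activated macrophages, was 0.29 (0.21 to 0.37) and that with depth -0.01. Arg1 was at 1707 CPM in these cells, 33.1 CPM in carcinoma-like and 59.4 CPM in microglia or macrophage-like cells.

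Glycolysis and hypoxia members also went with each other. The sums of the 2 kinds had an r of 0.37 in carcinoma-like cells and 0.30 in titled positive monocyte or macrophage-like cells. The same r was 0.14 in 333 titled control monocyte or macrophage-like cells and 0.03 in 2259 microglia-like cells. In 640 microglia or macrophage-like and 209 neutrophil-like cells of the titled positive library it was 0.10 and 0.15. In the 333 titled control cells the members' sum had an r of 0.29 with depth and 0.15 with Arg1. Arg1 rested there on 11 UMIs in 0.30% of cells, too sparse for this r to count as a finding. The r with Car9 was 0.19 in the neutrophil-like cells, in which carcinoma markers reached 39.8% of their carcinoma-like level. Car9 was in 6.70% of these 209 cells when thinned, too few for this r to count as a finding.

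Single members were also set against the rest of the set. With the sum of the other members, Gapdh had an r of 0.45, Ldha 0.43, Aldoa 0.42, Bnip3 0.39, Eno1 0.38 and Ndrg1 0.33 in carcinoma-like cells. In monocyte or macrophage-like cells Gapdh had 0.45, Pkm 0.39, Aldoa 0.38, Bnip3 0.32, Tpi1 0.31 and Ndrg1 0.17. Hif1a had -0.02 and 0.04 and Ldhb -0.02 and -0.07 in carcinoma-like and monocyte or macrophage-like cells, so the transcript of the HIF-1 subunit had an r near 0 in both classes. The genes outside the set with the highest r with the sum of the members in carcinoma-like cells were Mif (0.41), Fam162a (0.36), Vim (0.35), Lgals1 (0.29), Higd1a (0.27), Cd63, Anxa2 (both 0.22), Bsg (0.21), S100a4 and Tmsb10 (both 0.20). In monocyte or macrophage-like cells they were Mif (0.42), Srgn (0.30), Arg1 (0.29), Fth1, Prdx6 (both 0.25), Capg, Grina (both 0.24), Prdx5, Fam162a and F10 (all 0.22), so that Mif and Fam162a were in both lists. Mif, Fam162a and Higd1a belong to the list of other hypoxia genes.

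**Figure D4:**
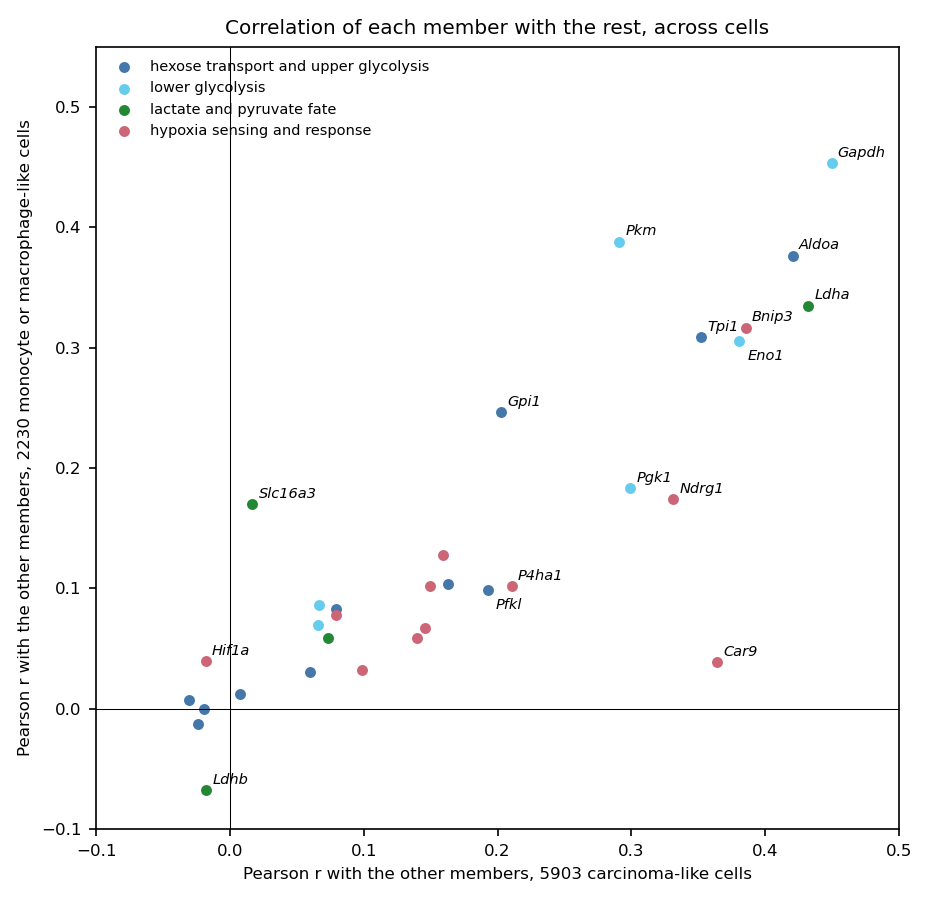
Pearson r of each member with the sum of the other members across thinned cells, in 5903 carcinoma-like cells (horizontal axis) and 2230 monocyte or macrophage-like cells (vertical axis) of the titled positive library. Gapdh lies at 0.45 on both axes, while Car9 lies at 0.36 on the first and 0.04 on the second.

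Carcinoma-like cells were then split by a Car9 UMI among the 2000 thinned UMIs, and levels were read from the UMIs left out of that draw. A Car9 UMI was present in 857 cells, 644 of them with exactly 1, and absent from 5046, with median depths of 9291 and 10406 UMIs. In the left-out UMIs Car9 itself was at 56.4 CPM without and 299 CPM with a Car9 UMI, so the split separated cells of lower and higher Car9 and not cells without and with it. Of the 30 other members tested, all 30 had a log2 ratio above 0, where 43.5% of 11381 genes did. Ldhb, at 14.16 CPM without and 14.11 CPM with a Car9 UMI, was above 0 only through the pseudocount. An interval above 0 was found for 25, and no share over all genes was taken for this. At least 1.5-fold higher were 21 of the 30, where 2.06% of genes were. The median log2 ratio was 0.81 (0.73 to 0.83 over the alternatives), beside -0.03 over all genes.

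The 3 highest ratios in this split, Car9 itself apart, were those of hypoxia-response members, and values without a Car9 UMI come first. Bnip3 was at 82.0 CPM without and 351 CPM with a Car9 UMI (2.10, 2.03 to 2.17), Ndrg1 at 119 and 475 CPM (2.0, 1.94 to 2.06) and Ankrd37 at 11.96 and 38.8 CPM (1.70, 1.48 to 1.91). Adm was at 14.97 and 43.0 CPM (1.52), Car12 at 8.28 and 20.8 CPM (1.33), P4ha1 at 37.5 and 91.1 CPM (1.28) and Ero1l, an oxidase of the endoplasmic reticulum, at 23.0 and 55.4 CPM (1.27). Among glycolytic members, Eno2 was at 2.30 and 6.55 CPM on 107 and 46 UMIs (1.52, 0.98 to 2.02), Pgk1 at 143 and 322 CPM (1.17), Pdk1 at 13.7 and 30.4 CPM (1.15), Pfkl at 91.6 and 183 CPM (1.00), Ldha at 1069 and 1833 CPM (0.78) and Gapdh at 2825 and 4405 CPM (0.64). Hif1a was at 89.5 and 95.9 CPM (0.10, -0.02 to 0.22) and Ldhb at 14.2 and 14.1 CPM (0.00, -0.32 to 0.30), so these differed by less than counting error. Vegfa, which is no member, was at 18.4 and 40.2 CPM (1.13), while the proliferation gene Mki67 was at 137 and 121 CPM (-0.18). The keratins Krt8 (0.30) and Krt18 (0.19) and the epithelial marker Epcam (0.29) were higher by less than the members' median.

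**Figure D5:**
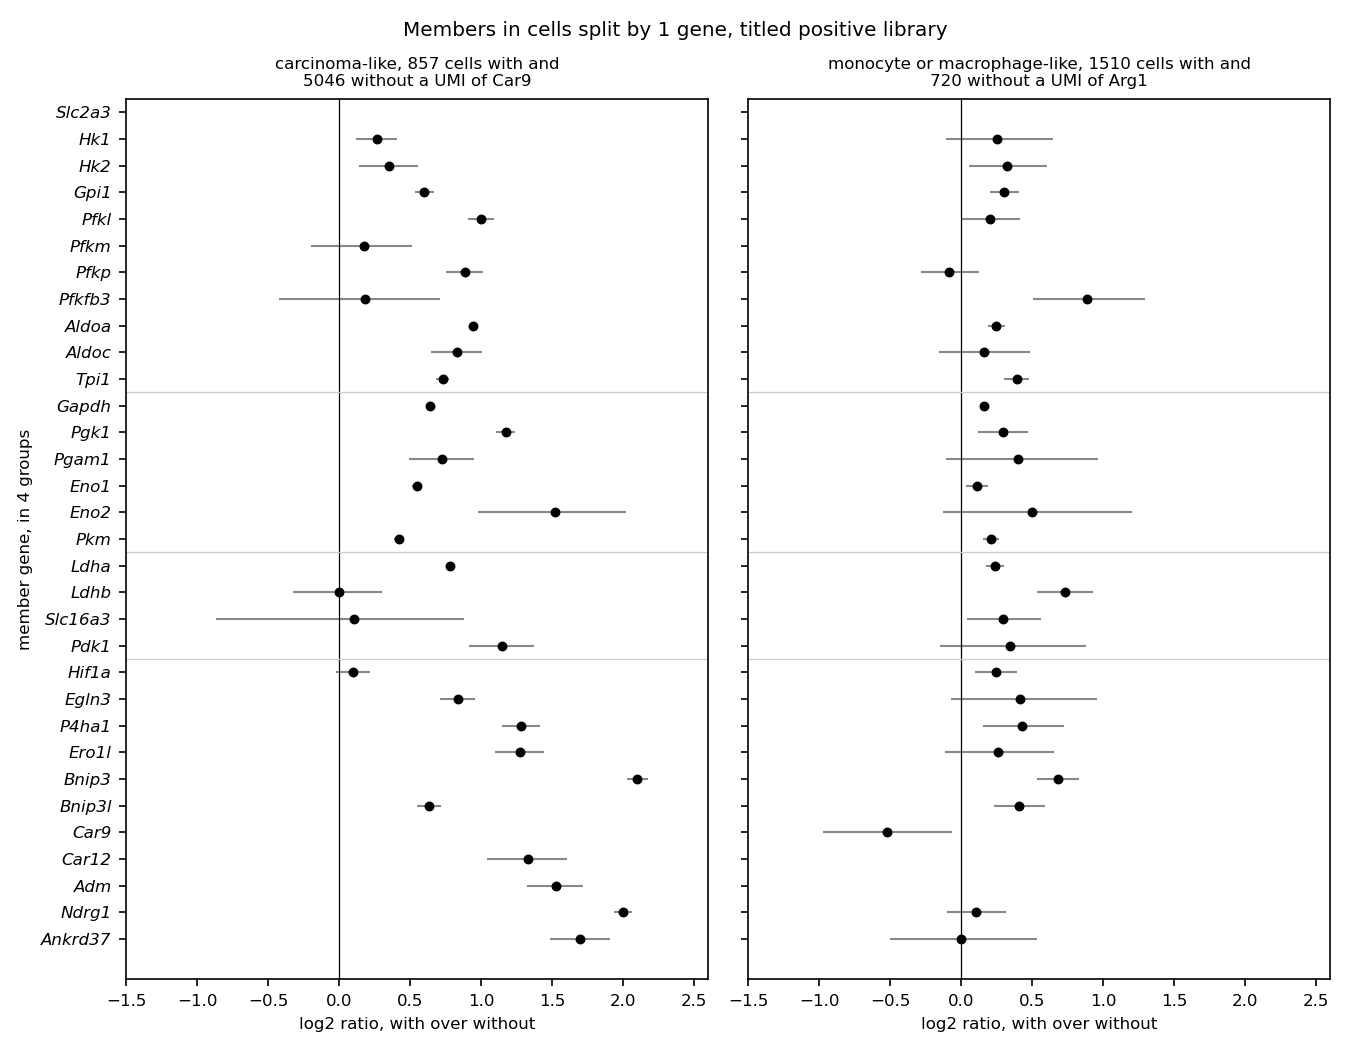
Log2 ratio of each member, cells with over cells without a UMI of the splitting gene, with 95% counting intervals, for the Car9 split of carcinoma-like cells and the Arg1 split of monocyte or macrophage-like cells. Bnip3 (2.10) and Ndrg1 (2.0) lead in the Car9 split, and the members tested in the Arg1 split reach at most 0.88 (Pfkfb3).

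The same split by Arg1 in titled positive monocyte or macrophage-like cells gave smaller differences, and values without an Arg1 UMI come first. An Arg1 UMI was present in 1510 cells and absent from 720, with median depths of 5577 and 4739 UMIs. Of 28 members tested 25 were higher in the cells with Arg1, where 39.6% of 7395 genes were. An interval above 0 was found for 17, and no share over all genes was taken for this. The median was 0.28 beside -0.05 over all genes, but 0.14 when cells were thinned to 3000 UMIs. At least 1.5-fold higher were 3 of the 28, where 1.83% of genes were: Pfkfb3 at 24.3 and 45.1 CPM (0.88, 0.51 to 1.30), Ldhb at 96.2 and 160 CPM (0.73, 0.54 to 0.93) and Bnip3 at 171 and 274 CPM (0.68, 0.54 to 0.83). Car9 was lower in the cells with Arg1, at 24.3 and 16.9 CPM (-0.53, -0.97 to -0.06), as were the carcinoma keratins Krt8 (-0.21) and Krt18 (-0.18), while the carcinoma marker Epcam was at 39.9 and 41.1 CPM (0.04, -0.28 to 0.37).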

How the data were processed

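The authors deposited 1 matrix of unnormalized UMI counts for each library. Cell Ranger and the build GRCm38 are named in the submitters' processing notes. Not given in the sources used here are how barcodes were called as cells, which annotation was counted and whether strand was used. Nothing in the labels says that the libraries came from separate animals or how many animals each holds.

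Barcodes under 200 genes or over 20% mitochondrial UMIs were dropped (11 titled control, 5 titled positive), as were doublets called by scanpy's Scrublet (600, 5.77%, and 300, 2.77%). The automatic threshold of that caller depends on its random seed. Cells scaled to 10000 UMIs were clustered (Leiden, resolution 1, 30 principal components of 2000 variable genes, 15 neighbours) without the 32 members, Arg1 and the other pathway genes. Classes were named from marker lists by a mean log2 ratio of the markers to the median cluster of 1.5 or more and at least 3 detected markers, and mixed clusters were left out. The clusters were known when these limits were chosen.

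UMIs were summed per class and library. Log2 ratios had titled control as the denominator and used a pseudocount of 0.5 counts and conditional exact binomial intervals, for genes with at least 10 UMIs. A level at 0 was set against a floor of 3 counts. For the subtraction of free RNA, the share of each class was its level of another class's markers divided by their level in the whole library, and the library profile was subtracted at that share. Correlations and splits used cells thinned to 2000 UMIs, and the split by a Car9 or Arg1 UMI was chosen after the correlations had been seen. Scripts were tested on simulated data. With 100 UMIs or more in the higher library, the 3 highest and 3 lowest members per class and Car9 are given in full. Members at least 4-fold above the median class are given across classes, as are the 10 genes that correlated best with the set in each of 2 classes and examples from the 3 highest and lowest of the other lists. A gene of these lists is not reported here. Further members were named after their values were seen. The members and all lists were chosen with earlier results of these data known. Reads of Aldoa, Gapdh, Pgk1, Pgam1, Ldha, Eno1 and Bnip3l could be shared with near-identical copies or pseudogenes, so their counts are uncertain.

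Tools were Python 3.11.15, numpy 2.4.6, scipy 1.17.1, pandas 2.3.3, scanpy 1.11.5, leidenalg 0.10.2, igraph 0.11.9 and matplotlib 3.10.9, with GENCODE M21 for coordinates. Alternatives covered doublet removal, clustering resolution, naming of cells, free RNA, thinning, scaling, minimum counts and the fold threshold.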

Additional observations from a re-analysis of the deposited data

Results flagged for a closer look

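Aldoc differed in direction between classes, with a log2 ratio of titled positive over titled control of 2.03 in oligodendrocyte-like cells and -4.07 in endothelial cell-like cells, a gap of 6.10. With 1 library per group this difference was not tested. With free RNA subtracted the oligodendrocyte-like ratio was 4.02. The endothelial cell-like ratio turned to 4.40, but almost no Aldoc was then left in the titled control class, so this value rests on the pseudocount. Ndrg1 was higher in dendritic cell-like cells of the titled positive library (1.24) and lower in oligodendrocyte-like cells (-1.56), a gap of 2.80 that was not tested either.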

How the results depend on the processing

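No paired analysis was possible because each group holds 1 library. Over the alternatives, 84 of 85 recomputed medians counted as unchanged by the limits set. The exception was the Arg1 split, whose median was 0.14 when cells were thinned to 3000 UMIs. The limits were wide, as the ranges given above for each class counted as unchanged, among them that of oligodendrocyte-like cells, whose median changed sign. For single members, 40 ratios were recomputed, mainly of the highest and lowest members per class and not of all members. Their direction was kept in all but 7 of 392 recomputed ratios. Subtracting free RNA turned Aldoc to 4.40 and Ldhb to 0.38 in endothelial cell-like cells, Pfkm to 0.24 in monocyte or macrophage-like cells and Bnip3 to -3.62 in T cell-like cells. For the 4.40 and the -3.62, almost no UMIs of the gene were left in 1 of the libraries after the subtraction. In monocyte or macrophage-like cells Ldhb turned to 0.040 at resolution 2 and to 0.078 with cells named by their own markers, and Pfkm to 0.12 at resolution 2.

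Counts of members past 2-fold moved more. Subtracting free RNA gave 4 higher and 6 lower in oligodendrocyte-like cells, 0 lower in endothelial cell-like and dendritic cell-like cells (1 in the latter at a fixed 5%) and 1 lower in T cell-like cells. Thinning gave 5 higher in oligodendrocyte-like and 6 higher in fibroblast-like cells, and 2, 1, 1 and 1 lower in endothelial cell-like, monocyte or macrophage-like, fibroblast-like and dendritic cell-like cells. A minimum of 50 UMIs gave 5 higher in oligodendrocyte-like and in fibroblast-like cells, 1 lower in dendritic cell-like and 2 lower in T cell-like cells, and no minimum gave 2 lower in endothelial cell-like and 4 in dendritic cell-like cells. Resolution 2 gave 10 higher and 3 lower in endothelial cell-like and 3 lower in T cell-like cells. Naming each cell by its own markers and keeping mixed clusters (both gave 3 lower in endothelial cell-like and in T cell-like cells) and keeping doublets (3 lower in endothelial cell-like cells) moved only the lower counts. Mean CPM per cell gave 3 and centring on the all-gene median 2 lower in T cell-like cells. At 1.5-fold there were 9 higher and 4 lower in endothelial cell-like, 6 lower in monocyte or macrophage-like and 16 higher in T cell-like cells. The cause of these moves was not tested, apart from the fewer genes tested under thinning and higher minimums. Keeping mixed clusters and the alternatives to the splits were chosen after seeing the data.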
